A study of Rattus norvegicus with 96 samples.

Results

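The nuclear-encoded subunits of respiratory complex I, the NADH dehydrogenase of mitochondria, were followed in 2 brain regions of alcohol-preferring (P) rats after ethanol drinking. The genes were chosen by symbol: those beginning with Ndufa, Ndufb, Ndufc, Ndufs or Ndufv and a digit, together with Ndufab1, and without the Ndufaf assembly factors. This gave 36 genes of the 14217 with a probe set of 1 symbol, read by 39 probe sets, and each gene was represented by its probe set with the highest mean over all arrays. The regions were the central amygdala nucleus (CeA), an output nucleus for fear and stress responses, and the nucleus accumbens shell (NAc shell), a striatal part of the reward system. Above the limit for testing, a mean at the 40th percentile of a region, were 34 genes in CeA arrays and all 36 in NAc shell arrays. Ndufb8 (mean 6.74) and Ndufa4l2 (mean 6.80) were below that limit in the CeA, where it was 6.96.

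The P rat is a strain bred for high alcohol intake, and the series title describes the drinking as binge drinking. Ethanol rats had limited access to ethanol and water rats had none, and the brains were taken 1, 6 or 24 h after drinking ended. In the order of these hours, 11, 10 and 10 CeA arrays came from ethanol rats and 6, 5 and 6 from water rats, and 10, 10 and 11 NAc shell arrays from ethanol rats and 7, 5 and 5 from water rats, 96 in all. All groups were P rats, so a line without this background was not compared, and age and sex were not in the labels. The labels do not say whether arrays came from separate rats, so p values measure the spread between arrays, which may be technical. All values are log2 values of Affymetrix arrays, and differences are ethanol minus water on that scale.

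Complex I oxidizes NADH in the mitochondrial matrix, passes the electrons to ubiquinone and pumps protons across the inner membrane. Its core subunits, shared with bacteria, are split between the nuclear genome, which encodes those of the matrix arm with the flavin and the iron-sulfur clusters, and the mitochondrial genome, which encodes the proton pumps of the membrane arm. The accessory subunits, all nuclear, surround this core and are needed for its assembly or stability. Neurons depend on oxidative phosphorylation for ion pumping and synaptic transmission. Core genes among the 36 were Ndufv1, Ndufv2, Ndufs1, Ndufs3, Ndufs7 and Ndufs8. The mitochondrial genes were not analysed here, and Ndufa10 and Ndufs5 were read only by probe sets of several genes and are given no value. Ndufa4, now assigned to complex IV, and its homolog Ndufa4l2 were kept because the rule on symbols takes them.

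The tissue markers followed the labels in part. Drd1, a dopamine receptor of striatal projection neurons, lay between 9.73 and 12.36 in CeA arrays and between 12.67 and 14.13 in NAc shell arrays. Rgs9, a striatal regulator of G protein signalling, lay between 7.61 and 9.30 in CeA arrays and between 10.43 and 12.10 in NAc shell arrays. Both genes thus separated the regions without overlap. Of the CeA neuron markers, Prkcd and Crh had higher medians in CeA arrays (9.65 and 9.44) than in NAc shell arrays (8.86 and 6.40). Their ranges overlapped. Gad2 was nearly level (medians 9.11 and 9.02). The others, Gad1, Sst, Nts, Penk, Cartpt and Calcrl, had lower medians in CeA arrays, such as Cartpt at 10.12 against 12.83. Calcrl was low in both regions (medians 5.24 and 5.93). Normalization appears to have been done region by region (the lower quartile of a CeA array was at most 5.88, that of an NAc shell array at least 6.01). In 4 CeA arrays and 5 NAc shell arrays, the median correlation with the rest of the region was low. The 4 CeA arrays came from the last of 4 runs of array title numbers, and 2 of them were water arrays at 6 h (numbers 16 and 17). The 5 NAc shell arrays were all ethanol arrays. Counts and medians of the complex I genes without them stand beside the ethanol minus water comparisons and the differences between regions. They are not given for the comparisons between hours. The share of all probe sets at an unadjusted p under 0.05 is not given for fits without these or single arrays. Counts of complex I genes at such a p in those fits have no background beside them.

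Complex I genes are known for promoter motifs of NRF1 and ETS factors, which drive nuclear genes of mitochondria, and of YY1. RefSeq (GRCr8) promoter windows, 250 bases before to 50 after the annotated start, were matched for 34 of the 36 genes, without Ndufb9 and Ndufa8. The windows of 4 genes that lead the comparisons are shown: Ndufa2 and Ndufa12 for the CeA, and Ndufb7 and Ndufs3 for the NAc shell. Capitals mark a motif, and the first letter stands 250 bases before the start.
Ndufa2: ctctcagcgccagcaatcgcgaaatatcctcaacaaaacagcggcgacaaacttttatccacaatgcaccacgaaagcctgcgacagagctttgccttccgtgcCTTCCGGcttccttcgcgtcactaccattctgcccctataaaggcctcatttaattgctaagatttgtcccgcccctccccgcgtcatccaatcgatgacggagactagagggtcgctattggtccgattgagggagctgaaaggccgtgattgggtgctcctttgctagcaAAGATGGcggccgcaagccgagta
Ndufa12: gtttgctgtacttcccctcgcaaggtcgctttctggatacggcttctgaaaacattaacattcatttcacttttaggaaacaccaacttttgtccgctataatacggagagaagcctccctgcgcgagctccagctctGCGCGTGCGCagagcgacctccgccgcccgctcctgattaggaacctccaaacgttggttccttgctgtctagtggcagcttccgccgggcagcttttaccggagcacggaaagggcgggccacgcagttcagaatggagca
Ndufb7: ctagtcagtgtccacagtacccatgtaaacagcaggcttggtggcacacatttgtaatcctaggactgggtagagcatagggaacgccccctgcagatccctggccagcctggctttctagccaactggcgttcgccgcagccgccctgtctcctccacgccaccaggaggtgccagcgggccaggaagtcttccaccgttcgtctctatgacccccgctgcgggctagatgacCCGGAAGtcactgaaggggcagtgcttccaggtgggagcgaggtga
Ndufs3: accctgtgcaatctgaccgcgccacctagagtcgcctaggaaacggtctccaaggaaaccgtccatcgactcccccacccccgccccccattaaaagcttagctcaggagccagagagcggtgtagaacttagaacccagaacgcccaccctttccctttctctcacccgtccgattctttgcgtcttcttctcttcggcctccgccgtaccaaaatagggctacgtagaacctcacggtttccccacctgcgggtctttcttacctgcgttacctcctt
The Ndufa2 window, chr18:28631835-28632134 (minus strand), holds the ETS motif CCGGAAG on the other strand 146 bases before the start and the YY1 motif AAGATGG at base 27 after it. The Ndufa12 window, chr7:30658066-30658345 (plus strand), holds the NRF1 motif GCGCNTGCGC 112 bases before the start. The Ndufb7 window, chr19:41477262-41477541 (minus strand), holds the ETS motif 16 bases before the start, and the Ndufs3 window, chr3:97339625-97339904 (minus strand), holds none of these letters. Shown are 50 bases past the start for Ndufa2 and 30 for the others.

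Over the complex I genes, searched on both strands, 19 of the 34 windows held at least 1 of the motifs and 3 held more than 1 kind. The NRF1 motif stood in 6 of 34 (17.6%) and in 4.25% of 33469 promoters of all genes. The ETS motif stood in 7 of 34 (20.6%) and in 8.75% of all promoters. The YY1 motif stood in 9 of 34 (26.5%), always on the gene's own strand, against 3.97% of all promoters on that strand, and in 8 of the 9 it lay past the start. On the other strand it stood in 0 of 34 and in 3.13% of all promoters. These are matches of letters and were not tested as binding sites.

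In the CeA, ethanol and water rats were first compared over the mean of the 3 hours, which asks what drinking leaves irrespective of the hour. Of 34 complex I genes, 30 lay below 0 in ethanol rats, with a median of -0.05 and a range of -0.17 to 0.09, against 50.7% of all 18625 probe sets below 0 and a median of -0.00 over them. None of the 34 passed: limma called 0 (0.00%) of all probe sets. At an unadjusted p under 0.05 there were 7 of 34 genes, all below 0, and 1519 of all probe sets (8.16%). Single arrays moved that number: it was 2 without water array 16 of 6 h (median -0.04), and 12 without water array 17 of 6 h, without ethanol array 27 of 1 h or without water array 14 of 24 h (median -0.06 each). Without the 4 CeA arrays of low correlation 29 of 34 lay below 0 (median -0.05) and 9 had such a p. In bulk tissue, fewer cells of a type and less RNA per cell cannot be told apart, which touches each of these differences.

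The 4 smallest p values belonged to a core subunit and 3 accessory ones. Ndufa12, an accessory subunit of the matrix arm, differed by -0.14 ± 0.05 (SE, limma adjusted p = 0.519), and 23 of 31 ethanol arrays lay below the water mean of their hour. Ndufs8, a core subunit with iron-sulfur clusters, was at -0.15 ± 0.06 (adjusted p = 0.535, 24 of 31 arrays). Ndufab1, the mitochondrial acyl carrier protein, which also serves fatty acid synthesis and binds both arms of the complex, was at -0.12 ± 0.05 (adjusted p = 0.544, 24 of 31). Ndufa2, an accessory subunit of the NADH-oxidizing end, was at -0.17 ± 0.07 (adjusted p = 0.552, 24 of 31). None of the 4 differences passed the test.

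Ndufs8 lay at 10.49, 10.95 and 11.13 (lowest, median, highest) in ethanol arrays at 1 h, and at 10.87, 10.99 and 11.19 in water arrays. At 6 h it lay at 10.63, 10.91 and 11.10 in ethanol arrays, against 10.66, 10.96, 11.19, 11.35 and 11.55 in water arrays. At 24 h it lay at 10.71, 10.97 and 11.28 in ethanol arrays and at 10.75, 11.07 and 11.36 in water arrays. The groups overlapped at each hour, with 3 of the 5 water arrays above all ethanol arrays at 6 h. Ndufa12 lay at 11.67, 11.95 and 12.37 in ethanol arrays at 1 h, against 12.02, 12.13 and 12.34 in water arrays. Its medians at 6 h were 11.99 in ethanol arrays and 12.23 in water arrays, and those at 24 h were 12.04 and 12.02. The medians of Ndufa12 were thus lower in ethanol arrays at 1 and 6 h and level at 24 h.

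By role, the 6 core genes of the CeA divided, with 4 below and 2 above 0. Below 0 with Ndufs8 were Ndufs1, Ndufv2 and Ndufs7. Ndufs1, which carries more iron-sulfur clusters than any other subunit, was at -0.10 ± 0.05 (limma adjusted p = 0.594, 25 of 31 arrays). Ndufv2, an iron-sulfur subunit beside the flavin, was at -0.09 ± 0.05 (adjusted p = 0.628, 22 of 31). Ndufs7, which holds the last cluster before ubiquinone, was at -0.11 ± 0.09 (adjusted p = 0.738, 22 of 31). Above 0 were Ndufv1, which binds the flavin and NADH, at 0.09 ± 0.08 (adjusted p = 0.766, 20 of 31 arrays above) and Ndufs3, part of the ubiquinone module, at 0.07 ± 0.06 (adjusted p = 0.736, 20 of 31 above). The 9 accessory genes of the matrix arm had 8 below 0 (median -0.09), with Ndufa6 at -0.17 ± 0.09 beside Ndufa2 and Ndufa12, and Ndufs6 at 0.00 ± 0.03. The 17 tested accessory genes of the membrane arm had 16 below 0 (median -0.03), with Ndufc1 at -0.14 ± 0.06 and Ndufb1 at -0.11 ± 0.05. The exception was Ndufa13 at 0.02 ± 0.04. Each group of roles thus had most genes below 0.

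**Figure D1:**
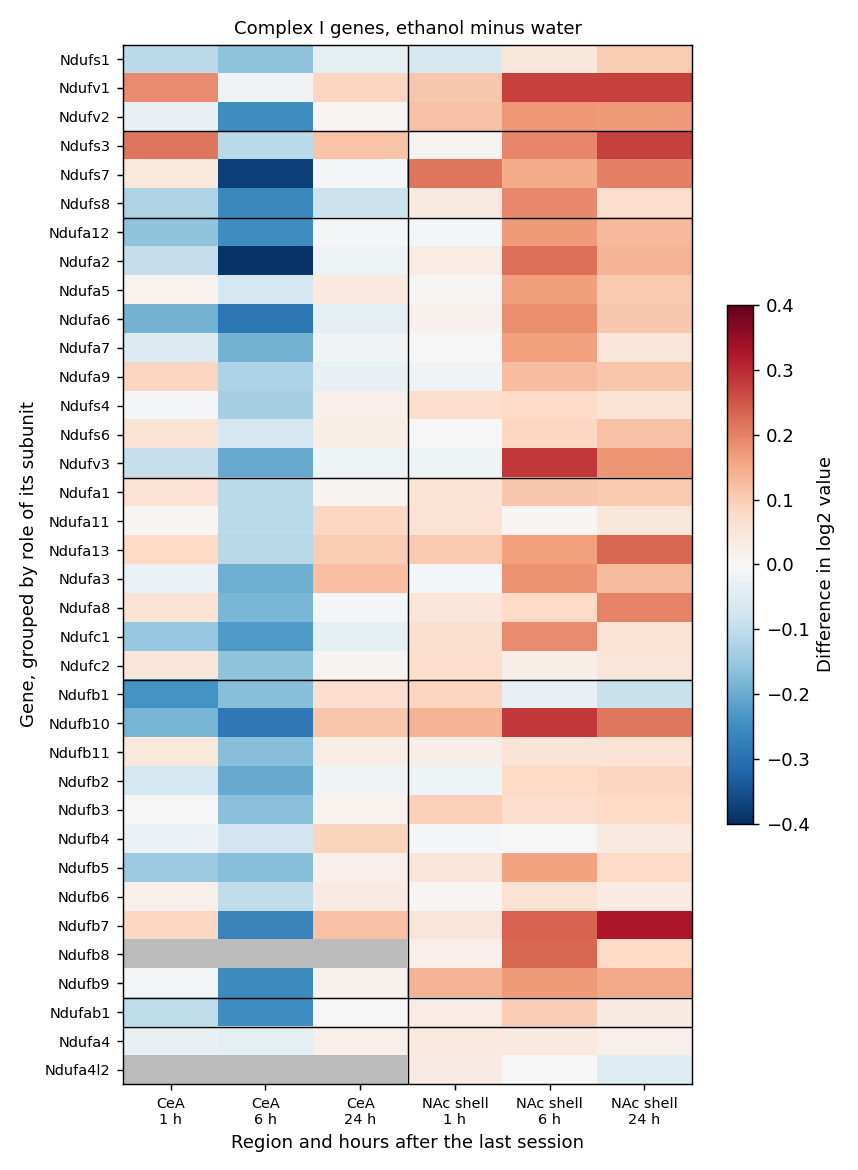
Ethanol minus water log2 difference of each complex I gene (vertical, by role) at 1, 6 and 24 h in the CeA and the NAc shell (horizontal), on a colour scale from -0.4 to 0.4, with grey for genes below the limit for testing. All 34 genes lie below 0 in the CeA at 6 h, down to -0.39 for Ndufa2, and 35 of 36 lie above 0 in the NAc shell at that hour, and none passes the test.

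At 1 h the complex I genes of the CeA lay on both sides of 0. Of 34 genes, 20 lay below 0 (median -0.02), against 44.5% of all probe sets (median 0.02). Limma passed 0 (0.00%), and 2 genes were at an unadjusted p under 0.05 (5.43% of all). Ndufb1, a small accessory subunit of the membrane arm, lay at 10.78, 10.96 and 11.35 in ethanol arrays and at 11.05, 11.26 and 11.57 in water arrays, a difference of -0.24 ± 0.09 (adjusted p = 0.902, 9 of 11 arrays below). Ndufs3 lay at 11.15, 11.26 and 11.84 in ethanol arrays and at 10.93, 11.17 and 11.36 in water arrays, a difference of 0.21 ± 0.10 (adjusted p = 0.902, 10 of 11 above). Ndufa12 was at -0.16 ± 0.09 (adjusted p = 0.902, 9 of 11 below). The ranges of both treatments overlapped for these genes. Leaving out single arrays moved the median of the 34 genes between -0.04, without ethanol array 27, and 0.01, without ethanol array 16. Without the 4 arrays of low correlation 22 of 34 lay below 0 (median -0.04), and 5 had an unadjusted p under 0.05, all of them below 0. Ndufs3 was then at 0.18 and no longer among these. With runs of title numbers as a block as well, 27 lay below 0 (median -0.07) and 11 had such a p, all below 0. For these fits the share of all probe sets at such a p is not given.

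At 6 h all 34 complex I genes of the CeA lay below 0 in ethanol rats, with a median of -0.17 and a range of -0.39 to -0.01. Of all probe sets 53.9% lay below 0 (median -0.02). An unadjusted p under 0.05 was reached by 13 of 34 genes and by 1531 of all probe sets (8.22%), and limma passed 0 (0.00%). The smallest adjusted p was 0.571. This comparison rests on 5 water arrays, and 1 of them, number 16, had a mean over the complex I genes 0.31 above that of the region's water arrays, the highest of all CeA arrays. Without it the 34 genes stayed below 0 with a median of -0.14, while 2 in place of 13 had an unadjusted p under 0.05. Without array 17, the other one that stood apart, 33 genes lay below 0 (median -0.21) and 18 had such a p. With all 4 such CeA arrays left out, 33 lay below 0 (median -0.15) and 4 had such a p.

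Ndufa2 had the largest difference at 6 h. It lay at 10.88, 11.17 and 11.45 in ethanol arrays, against 11.33, 11.42, 11.52, 11.54 and 11.93 in water arrays. All 10 ethanol arrays lay below the water mean, with an overlap at the upper end of ethanol and the lower end of water. The means were 11.15 ± 0.18 in ethanol arrays (SD, n = 10) and 11.55 ± 0.23 in water arrays (SD, n = 5), a difference of -0.39 ± 0.13 (limma adjusted p = 0.571). Leaving out single arrays gave -0.45 to -0.30. At 1 h Ndufa2 lay at 10.68, 11.22 and 11.81 in ethanol arrays and at 11.08, 11.28 and 11.51 in water arrays. At 24 h it lay at 10.94, 11.11 and 11.62 in ethanol arrays and at 10.81, 11.30 and 11.57 in water arrays. At these hours the ranges overlapped widely, and the water arrays at 6 h were the highest group of the CeA.

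Ndufab1 lay at 11.86, 12.08 and 12.27 in ethanol arrays at 6 h, against 12.17, 12.19, 12.27, 12.31 and 12.67 in water arrays. The highest water value belongs to array 16. The difference was -0.25 ± 0.09 (limma adjusted p = 0.571, 10 of 10 ethanol arrays below the water mean) and -0.16 without that array. Ndufv2 lay at 12.06, 12.37 and 12.56 in ethanol arrays and at 12.36, 12.49, 12.57, 12.62 and 12.94 in water arrays, a difference of -0.25 ± 0.09 (adjusted p = 0.571, 10 of 10 below) and again of -0.16 without array 16. For both genes the ethanol range reached into the lower end of the water values.

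**Figure D2:**
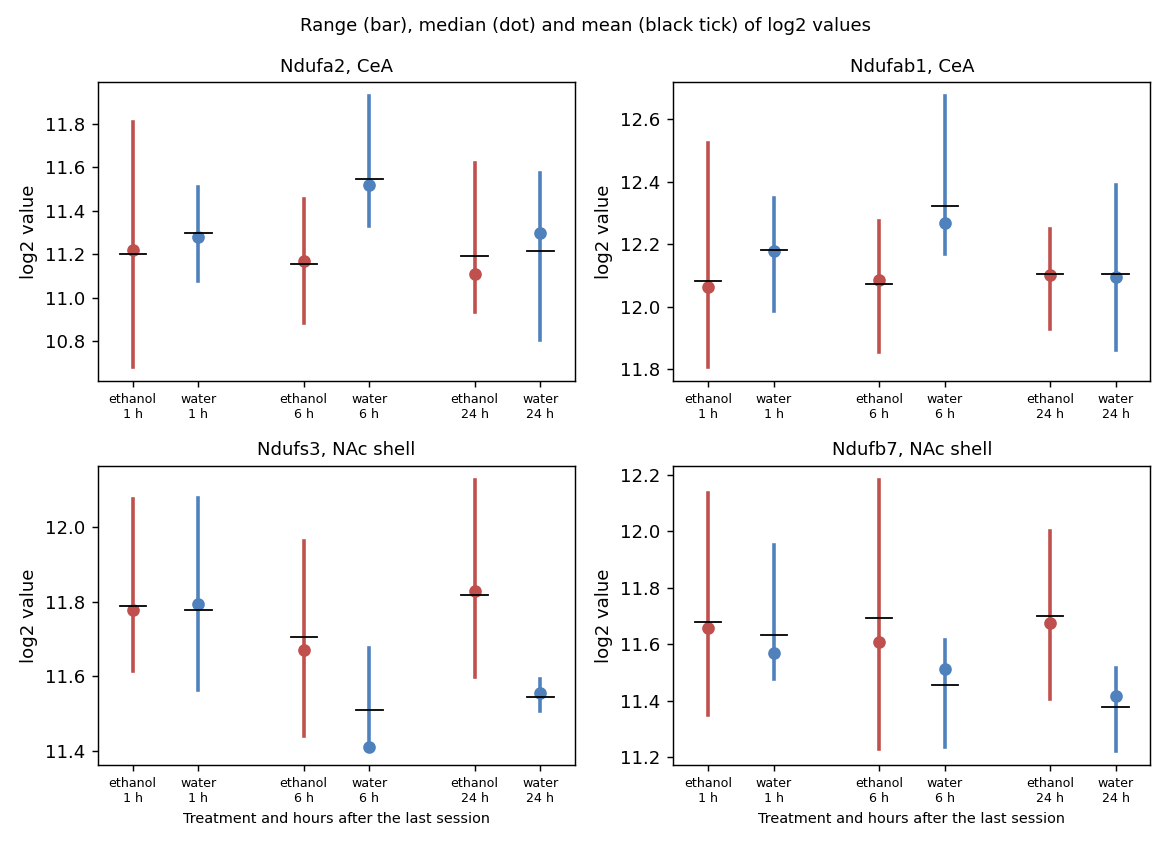
Log2 level by hour of Ndufa2 and Ndufab1 in the CeA and of Ndufs3 and Ndufb7 in the NAc shell, ethanol left of water, with bars for the range, dots for the median and ticks for the mean of each group of 5 to 11 arrays. The water groups of Ndufa2 and Ndufab1 stand highest at 6 h (medians 11.52 and 12.27), and those of Ndufs3 and Ndufb7 lie lowest at 6 and 24 h.

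All roles shared the direction at 6 h. The 6 core genes had a median of -0.20, from Ndufs7 at -0.37 ± 0.16 to Ndufv1 at -0.01 ± 0.14, which had 5 of 10 ethanol arrays below the water mean. The 9 accessory genes of the matrix arm had a median of -0.19 and the 17 of the membrane arm one of -0.17. In these groups Ndufa12 was at -0.25 ± 0.10, Ndufb9, a protein of the LYR family, at -0.25 ± 0.10, and Ndufb3 at -0.17 ± 0.06. Ndufa4 of complex IV was at -0.03 ± 0.07.

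Genes outside complex I lay below 0 at 6 h as well. The 38 tested genes of complexes II to V had 37 below 0 (median -0.18, 11 at an unadjusted p under 0.05), with Cox7a1, a complex IV subunit, at -0.42 ± 0.12 and Uqcrc1, a core subunit of complex III, at -0.27 ± 0.10. Over the 3 hours 32 of these 38 lay below 0 (median -0.05). The 14 complex I assembly factors were all below 0 at 6 h (median -0.09), led by Ndufaf8 and Ecsit at -0.21 ± 0.10 each, and 12 of 14 over the 3 hours (median -0.04, Ndufaf7 at -0.09 ± 0.04). Of 12 regulators of mitochondrial biogenesis, 7 lay below 0 at 6 h and 6 over the 3 hours. Ppargc1b, a coactivator of mitochondrial genes, was at 0.36 ± 0.16 at 6 h and at 0.31 ± 0.09 over the 3 hours (limma adjusted p = 0.316), and Ppargc1a, its relative, at -0.24 ± 0.14 at 6 h. The genes of the other complexes thus lay on the same side as complex I, while the regulators were divided, and none of these genes passed.

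Cell type markers departed from 0 at 6 h in the CeA too, and none of them passed the test. The same 5 water arrays enter these values, which are not given without arrays 16 and 17. All 11 oligodendrocyte markers lay below 0 (median -0.43, Mag at -0.71 ± 0.35), as did all 9 tested microglia markers (median -0.23, C1qc at -0.54 ± 0.18) and all 9 endothelial markers (median -0.18). The log2 of the summed oligodendrocyte markers lay at 15.81, 16.31 and 16.93 in ethanol arrays, against 15.78, 16.77 and 16.88 in water arrays. For microglia it lay at 13.86, 14.02 and 14.54 in ethanol arrays, against 13.92, 14.25 and 14.53 in water arrays. The medians of both lists were lower in ethanol arrays, within the range of the water arrays. The sum of the CeA neuron markers lay at 15.10, 15.42 and 15.80 in ethanol arrays, against 14.87, 15.23 and 15.53 in water arrays. General neuron markers had 7 of 10 below 0 (median -0.06), astrocyte markers 7 of 9 (median -0.08), and CeA neuron markers 7 of 8 above 0 (median 0.51, Gad2 at 0.53 ± 0.20). RMA values have no true 0, and the part of these cells in the complex I values was not tested.

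At 24 h the complex I genes of the CeA were level. Of 34 genes, 22 lay above 0 (median 0.01), against 48.8% of all probe sets (median -0.00). At an unadjusted p under 0.05 there were 0 genes, against 0.655% of all probe sets, and limma passed 0 (0.00%). Ndufa13, also known as GRIM-19, was at 0.10 ± 0.07, Ndufs3 at 0.12 ± 0.10 and Ndufa3 at 0.12 ± 0.11 (adjusted p = 1.00 each, with 8, 8 and 7 of 10 ethanol arrays above the water mean). Ndufa13 lay at 11.75, 12.01 and 12.10 in ethanol arrays and at 11.66, 11.87 and 12.09 in water arrays, with nearly the same range. Leaving out single arrays moved the median of the 34 genes between -0.02, without water array 14, and 0.05, without water array 8. Without the arrays of low correlation 22 genes again lay above 0 (median 0.01). In the CeA the ethanol and water arrays of 0 of 34 complex I genes were without overlap at any hour, as were those of 0.0376%, 0.0376% and 0.00537% of all probe sets at 1, 6 and 24 h.

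The hours were compared within each treatment to see in which of them the 6 h arrays stood apart. In water rats of the CeA, all 34 complex I genes lay higher at 6 h than at 1 h (median 0.13), against 57.7% of all probe sets above 0. Ndufs3 was at 0.29 ± 0.11 (limma adjusted p = 0.789). All 34 lay lower at 24 h than at 6 h (median -0.18), against 51.9% of all probe sets below 0, with Ndufa13 at -0.27 ± 0.08 (adjusted p = 0.659). In ethanol rats 21 of 34 lay below 0 for 6 h minus 1 h (median -0.01), against 53% of all probe sets. The step at 6 h thus stood in the water arrays. The same 5 arrays enter the ethanol minus water difference, and neither comparison adds support to the other. Of these 5, 2 were low-correlation arrays of the fourth run of title numbers, which has no water array of 1 or 24 h. The mean deviation of the complex I genes in water arrays was 0.02, 0.03, -0.09 and 0.15 by run. Hour and run were thus partly mixed in water rats. The step is given neither without these 2 arrays nor with runs as a block.

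Tested over the hours together, 0 complex I genes varied in water rats of the CeA (0.00% of all probe sets passed). Ndufa13, Ndufs3 and Ndufa1 had the smallest p among them (adjusted p = 0.934 each). Within ethanol rats 11 probe sets passed (0.0591%), with 0 complex I genes among them, and Ndufb5, Ndufb1 and Ndufa13 had the smallest p (adjusted p = 1.00). The ethanol by hour interaction passed 0 (0.00%). Its smallest p values belonged to Ndufb1, Ndufc2 and Ndufb7 (unadjusted p = 0.0401, 0.0408 and 0.0596, adjusted p = 0.979). The ethanol effect at 6 h was below that at 1 h for 33 of 34 genes. That count reuses the 6 h water arrays and is given without the share over all probe sets. The difference between hours was therefore not resolved for any single gene.

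In the NAc shell the complex I genes lay on the other side of 0. Over the mean of the 3 hours 34 of 36 were above 0 in ethanol rats, with a median of 0.09 and a range of -0.01 to 0.22, against 53.4% of all probe sets above 0 and a median of 0.01. An unadjusted p under 0.05 was reached by 11 genes, all above 0, and by 2061 of all probe sets (11.1%). Limma passed 0 (0.00%). Without the 5 ethanol arrays that stood apart, 33 of 36 lay above 0 (median 0.06) and 6 had such a p. Without water array 31 of the 24 h group the median was 0.11 and 19 genes had such a p, and without ethanol array 33 of the 1 h group these were 0.09 and 7. The exceptions with all arrays were Ndufb1 at -0.01 ± 0.08 and Ndufa4l2 at -0.01 ± 0.05.

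Ndufs3 had the smallest p of the family. At 24 h it lay at 11.60, 11.83 and 12.13 in ethanol arrays, against 11.51, 11.51, 11.55, 11.56 and 11.59 in water arrays. Every ethanol array was above every water array, though the lowest ethanol value of 11.60 and the highest water value of 11.59 nearly touched. At 6 h it lay at 11.44, 11.67 and 11.96 in ethanol arrays, against 11.40, 11.41, 11.41, 11.65 and 11.68 in water arrays. At 1 h it lay at 11.61, 11.78 and 12.08 in ethanol arrays and at 11.56, 11.79 and 12.08 in water arrays, so the treatments were level at 1 h and the water arrays lower at the later hours. The mean difference over the hours was 0.16 ± 0.04 (limma adjusted p = 0.217, 25 of 31 ethanol arrays above the water mean of their hour). It was 0.20 ± 0.08 at 6 h and 0.27 ± 0.08 at 24 h (adjusted p = 0.899 and 0.999). Ndufs3 was the 1 complex I gene of 36 whose ethanol and water arrays did not overlap at 24 h, against 0.0537% of all probe sets. At 1 and 6 h there were 0 of 36, against 0.00% and 0.043%.

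Ndufb7, an accessory subunit on the intermembrane face of the membrane arm, was at 0.20 ± 0.07 over the hours (limma adjusted p = 0.260, 25 of 31 arrays). At 24 h the ethanol arrays had a lowest value of 11.41, a median of 11.67 and a highest value of 12, against 11.22, 11.29, 11.42, 11.45 and 11.52 in water arrays, a difference of 0.32 ± 0.12 (adjusted p = 0.999, 11 of 11 ethanol arrays above the water mean). The water values filled the lower end of the ethanol range. Ndufa3, a small membrane-arm subunit, lay at 12.81, 12.98 and 13.22 in ethanol arrays at 6 h, against 12.76, 12.80, 12.81, 12.82 and 12.88 in water arrays. Its difference was 0.18 ± 0.06 at 6 h (adjusted p = 0.899, 9 of 10 arrays) and 0.10 ± 0.03 over the hours (adjusted p = 0.280, 23 of 31). The ethanol median of Ndufa3 at 6 h stood above the highest water array, and the lower end of the ethanol range overlapped with the water values.

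Ndufv1, the flavin and NADH binding core subunit, was at 0.22 ± 0.08 over the hours (limma adjusted p = 0.309, 25 of 31 arrays). It lay at 11.77, 12.30 and 12.71 in ethanol arrays at 6 h, against 11.61, 11.79, 11.99, 12.17 and 12.19 in water arrays, and at 11.63, 12.15 and 12.80 in ethanol arrays at 24 h, against 11.75, 11.79, 11.86, 11.93 and 12.23 in water arrays. Of the other core genes, Ndufv2 was at 0.15 ± 0.07 (adjusted p = 0.411, 21 of 31), Ndufs7 at 0.19 ± 0.10 (adjusted p = 0.502, 23 of 31), Ndufs8 at 0.10 ± 0.07 (adjusted p = 0.628, 19 of 31) and Ndufs1 at 0.03 ± 0.05 (adjusted p = 0.881, 18 of 31). Ndufab1 was at 0.06 ± 0.07 (adjusted p = 0.817, 17 of 31). All 6 core genes lay above 0 (median 0.16), as did the 9 accessory genes of the matrix arm (median 0.09, Ndufa5 at 0.09 ± 0.04) and 17 of the 18 of the membrane arm (median 0.09, Ndufb10 at 0.21 ± 0.08 and Ndufa13 at 0.17 ± 0.06).

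By hour the NAc shell had 27 of 36 genes above 0 at 1 h (median 0.03, against 52% and 0.00 for all probe sets), 35 at 6 h (median 0.15, against 53% and 0.01) and 34 at 24 h (median 0.10, against 53.8% and 0.01). An unadjusted p under 0.05 was reached by 0, 6 and 4 genes, against 1.88%, 5.23% and 3.74% of all probe sets. Limma passed 0 (0.00%) at each hour. At 1 h the smallest p values belonged to Ndufs7 at 0.21 ± 0.17, Ndufb9 at 0.13 ± 0.12 and Ndufa13 at 0.11 ± 0.10 (adjusted p = 1.00 each, with 9, 6 and 5 of 10 arrays above). Ndufb8, a subunit of the far end of the membrane arm, lay at 7.91, 8.16 and 8.47 in ethanol arrays at 6 h, against 7.75, 7.86, 7.93, 8.02 and 8.09 in water arrays, a difference of 0.23 ± 0.08 (adjusted p = 0.899, 8 of 10). At 24 h Ndufa3 was at 0.13 ± 0.06 (adjusted p = 0.999, 10 of 11). The 2 genes below 0 at 24 h were Ndufb1 at -0.09 ± 0.13 and Ndufa4l2 at -0.05 ± 0.08.

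Single arrays weighed on the 24 h values. Without water array 31, the median at 24 h was 0.16 and 10 genes had an unadjusted p under 0.05, and without water array 30 these were 0.04 and 3. At 6 h, 2 genes had such a p without water array 27 and 10 without ethanol array 49. At 1 h the median lay between 0.01, without water array 20, and 0.07, without ethanol array 34. Without the 5 ethanol arrays that stood apart, 24 of 36 genes lay above 0 at 24 h (median 0.04), 33 of 36 at 6 h (median 0.12, 2 genes at such a p) and 26 of 36 at 1 h (median 0.02). The interaction with the hour passed 0 (0.00%), with Ndufs3, Ndufa3 and Ndufb8 at the smallest p (unadjusted p = 0.0457 for Ndufs3, adjusted p = 1.00). Within ethanol rats 7 probe sets passed over the hours (0.0376%), 0 of them complex I genes, with Ndufa7, Ndufb2 and Ndufa6 at the smallest p. Within water rats 0 passed (0.00%), and Ndufs3 (unadjusted p = 0.00404), Ndufa9 and Ndufb1 led.

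The 38 genes of complexes II to V were all above 0 in the NAc shell over the hours (median 0.10, 15 at an unadjusted p under 0.05), with Uqcrc1 at 0.23 ± 0.05 (limma adjusted p = 0.200) and the complex V subunit Atp5pf at 0.15 ± 0.05. The assembly factors had 9 of 14 above 0 (median 0.03, Timmdc1 at 0.10 ± 0.04 and Ndufaf7 at 0.08 ± 0.04), and the biogenesis regulators 9 of 12 (Ppargc1b at 0.19 ± 0.07, Gabpb1 at 0.07 ± 0.03). Neuron markers were above 0 in 9 of 9 (median 0.05), astrocyte markers in 9 of 9 (median 0.05) and microglia markers in 7 of 8 (median 0.06), while oligodendrocyte markers had 7 of 11 below 0 (median -0.01) and endothelial markers 5 of 9. Among markers of NAc neurons, Ppp1r1b at 0.16 ± 0.11 and Penk at 0.08 ± 0.06 had the smallest p over the hours. At 6 h these were Drd1 at -0.18 ± 0.18 and Rgs9 at -0.18 ± 0.22. The part of these cell types in the complex I values was not tested.

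**Figure D3:**
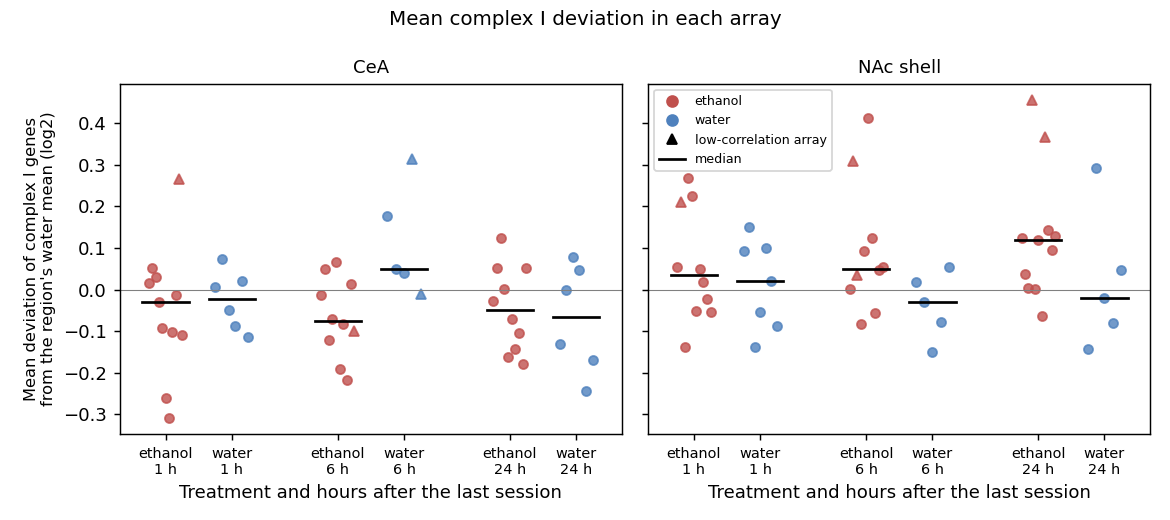
Mean deviation of the complex I genes from the mean of the region's water arrays (log2, vertical), 1 point per array, by hour with ethanol left of water, in the CeA and the NAc shell, with triangles for the arrays of low correlation. At 6 h the CeA medians are -0.08 in ethanol and 0.05 in water arrays, with 1 water array at 0.31, and the NAc shell medians are 0.05 and -0.03.

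Averaged over the complex I genes, each array had a mean deviation from the water mean of its region. In the CeA at 6 h it lay at -0.22, -0.08 and 0.07 in ethanol arrays (lowest, median, highest) and at -0.01, 0.05 and 0.31 in water arrays, with array 16 at 0.31. At 1 h it lay at -0.31, -0.03 and 0.27 in ethanol arrays and at -0.12, -0.02 and 0.07 in water arrays, and at 24 h at -0.18, -0.05 and 0.12 in ethanol arrays and -0.24, -0.07 and 0.08 in water arrays. In the NAc shell at 24 h it lay at -0.06, 0.12 and 0.46 in ethanol arrays and at -0.14, -0.02 and 0.29 in water arrays. The treatments overlapped in each of these groups. The mean at 6 h in the CeA was -0.07 ± 0.10 in ethanol arrays (SD, n = 10) and 0.11 ± 0.13 in water arrays (SD, n = 5). The highest NAc shell values were in ethanol arrays of low correlation, which ranged from 0.03 to 0.46.

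In the CeA, runs of array title numbers set levels apart. The mean deviation was 0.02 in ethanol and 0.02 in water arrays of the first run, -0.03 and 0.03 in the second, -0.15 and -0.09 in the third, and 0.02 and 0.15 in the fourth, whose 2 water arrays were both taken at 6 h. Within the runs in this order, 14, 27, 30 and 30 of 34 genes lay below 0 in ethanol rats (medians 0.01, -0.08, -0.08 and -0.21), so the first run lacked the common direction. These values come from fits with the hour as a term. In the fourth run only 6 h has arrays of both treatments, so its value rests on 2 ethanol and 2 water arrays of 6 h and is no mean over the hours. With runs as a block, 31 of 34 lay below 0 over the hours (median -0.05) and 10 had an unadjusted p under 0.05. The smallest adjusted p of a complex I gene was then 0.150 and 0 passed, against 0.258% of all probe sets. At 6 h 33 of 34 lay below 0 with that block (median -0.16, 15 at an unadjusted p under 0.05). Shares of all probe sets at an unadjusted p under 0.05 are not given for this block, so these counts have no background. The labels do not say what the runs stand for.

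The effects of the 2 regions were compared in 1 fit over 17572 probe sets, as CeA minus NAc shell difference of the ethanol effects. It reuses the arrays of the comparisons above and treats the regions as unrelated, because no label tells which arrays share a rat. Over the mean of the hours all 34 genes lay below 0 (median -0.14), against 53.4% of all probe sets (median -0.01). An unadjusted p under 0.05 was reached by 12, against 9.39%, and limma passed 0 (0.00%). Ndufa12 was at -0.24 ± 0.08, Ndufv2 at -0.24 ± 0.09 and Ndufb10 at -0.33 ± 0.12 (adjusted p = 0.432 each). Without NAc shell water array 31 the median was -0.17 and 20 genes had such a p, and without CeA water array 8 these were -0.13 and 10. Without the arrays of low correlation in both regions 34 of 34 lay below 0 (median -0.11), and 6 had such a p (smallest limma adjusted p = 0.817).

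At 6 h the difference was below 0 for all 34 genes (median -0.28), against 54.3% of all probe sets (median -0.02), and 19 had an unadjusted p under 0.05, against 11.1%. Limma passed 0 (0.00%). Ndufa2 was at -0.61 ± 0.20, with ethanol minus water at -0.39 in CeA arrays and 0.22 in NAc shell arrays. Ndufa12 was at -0.42 ± 0.14 (-0.25 in the CeA, 0.17 in the NAc shell) and Ndufv3, an accessory subunit beside the flavin, at -0.48 ± 0.17 (-0.20 in the CeA, 0.28 in the NAc shell), with a limma adjusted p = 0.410 for each. Without all arrays of low correlation 34 of 34 stayed below 0 (median -0.24, 10 with such a p), and without CeA array 16 the median was -0.25 with 11. The genes of complexes II to V gave 38 of 38 below 0 (median -0.30).

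**Figure D4:**
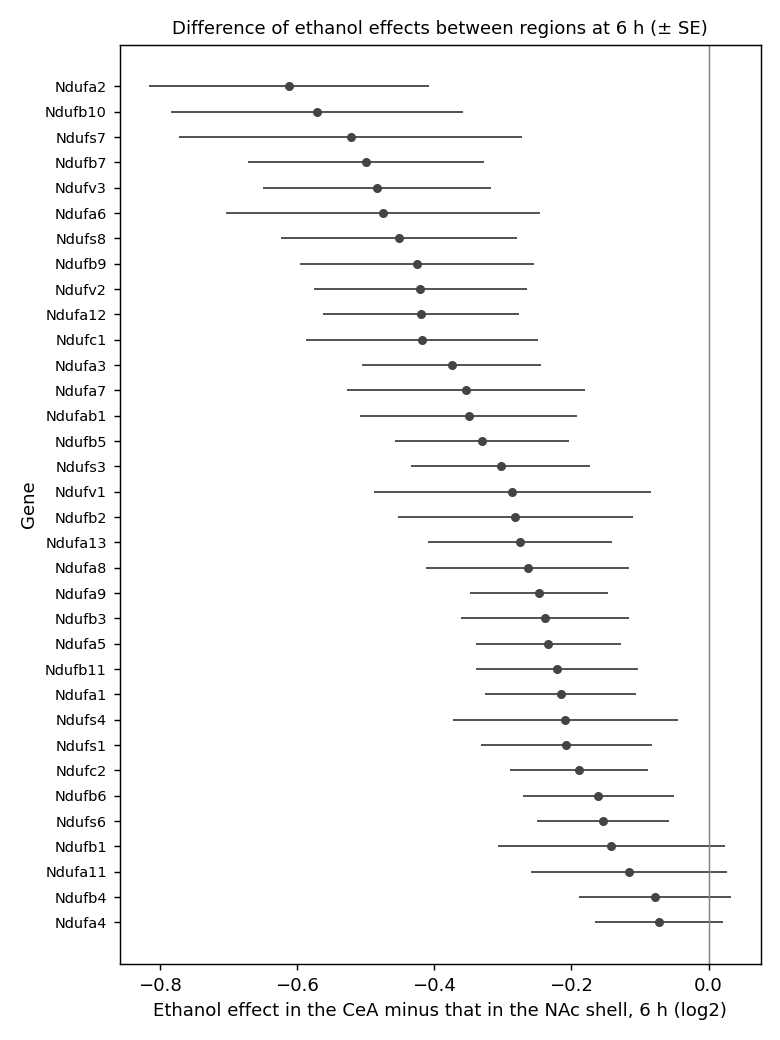
CeA minus NAc shell difference of the ethanol effects at 6 h for the complex I genes (log2, with standard errors as bars), sorted by size. All 34 genes lie below 0, from -0.61 for Ndufa2 to -0.07, and 19 have an unadjusted p under 0.05.

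At 1 h 24 of 34 genes lay below 0 (median -0.05), against 48.3% of all probe sets (median 0.01), and 1 had an unadjusted p under 0.05, against 2.23%. Ndufb1 was at -0.33 ± 0.15, Ndufs3 at 0.20 ± 0.12 and Ndufb5 at -0.19 ± 0.12 (limma adjusted p = 1.00 each). At 24 h 30 of 34 lay below 0 (median -0.10), against 55.8% of all probe sets (median -0.02), and 0 had such a p, against 1.02%. Ndufa8 was at -0.20 ± 0.14, Ndufa9 at -0.14 ± 0.10 and Ndufs3 at -0.16 ± 0.13 (adjusted p = 1.00 each). Limma passed 0 (0.00%) at both hours. Without the arrays of low correlation 21 of 34 lay below 0 at 24 h (median -0.02) and 25 of 34 at 1 h (median -0.08). The median at 24 h was -0.18 without NAc shell water array 31 and -0.03 without water array 30, and at 1 h it lay between -0.09 and -0.02 without single arrays.

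The complex I genes varied together from array to array. With group means removed, the mean pairwise correlation was 0.42 in the CeA (509 of 561 pairs above 0) and 0.44 in the NAc shell (564 of 630 pairs), over 48 arrays each, against 0.02 and 0.03 for all probe sets tested. These correlations share libraries and normalization and are given as a description. In the CeA the correlation of a gene with the mean of the others had a median of 0.67, from 0.24 for Ndufa5 to 0.92 for Ndufa2. In the NAc shell it had a median of 0.76, from -0.15 for Ndufv1 to 0.95 for Ndufb9. Ndufv1, Ndufb8 (0.12) and Ndufs3 (0.21) had the lowest values of the complex I subunits in the NAc shell, and Ndufa4l2, the homolog kept for its symbol, was at 0.08. Ndufv1 and Ndufs3 are 2 of the 4 genes with the smallest p there.

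**Figure D5:**
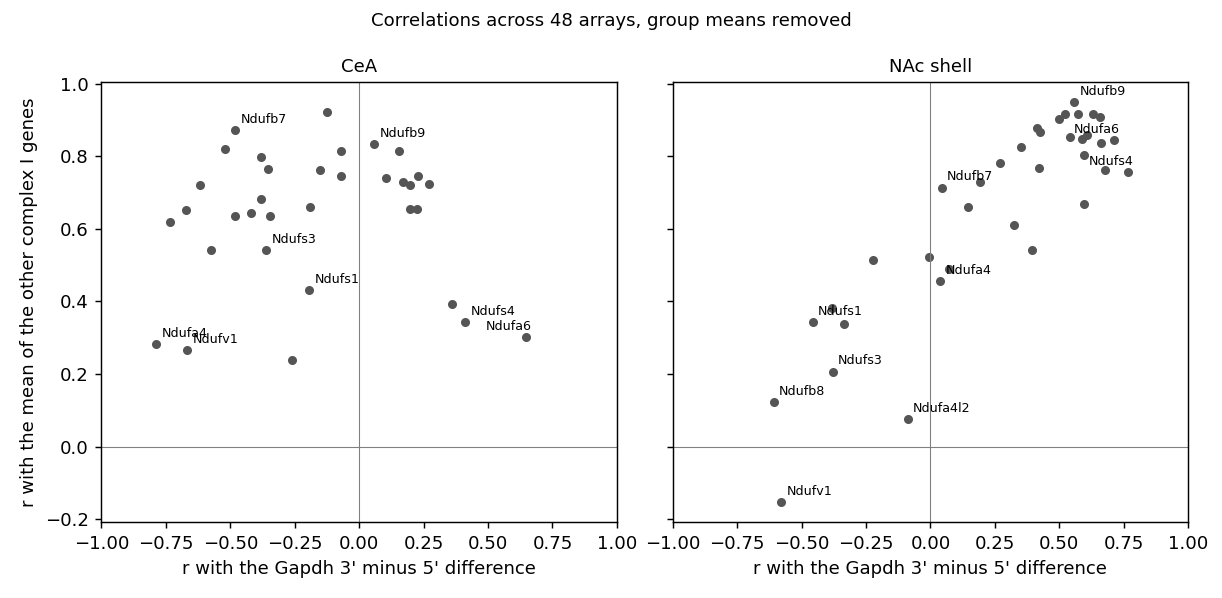
Each complex I gene by its correlation over 48 arrays with the 3 prime minus 5 prime difference of the Gapdh control probe sets (horizontal) and with the mean of the other complex I genes (vertical), in the CeA and the NAc shell, group means removed. In the NAc shell the genes range from -0.61 for Ndufb8 to 0.77 for Ndufs4 on the horizontal axis, and Ndufv1 is the lowest on the vertical axis at -0.15.

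The shared variation moved with a measure of RNA integrity in part. The Gapdh control probe sets read both ends of 1 transcript, and a larger 3 prime minus 5 prime difference marks shorter labelled RNA. In the NAc shell 27 genes correlated with it above 0 and 9 below, from -0.61 for Ndufb8 and -0.58 for Ndufv1 to 0.71 for Ndufa6 and 0.77 for Ndufs4. In the CeA 12 lay above and 22 below, from -0.79 for Ndufa4 and -0.73 for Ndufb4 to 0.65 for Ndufa6. Over 48 arrays the mean deviation of the complex I genes correlated with it at 0.46 in the NAc shell and -0.24 in the CeA. By run of title numbers, in order, the mean Gapdh difference was 2.33, 2.51, 3.56 and 3.01 in ethanol arrays of the CeA. In its water arrays it was 2.68, 2.52, 3.27 and 3.34. The CeA correlations had only the means of treatment and hour removed, so run and Gapdh difference are mixed in them. The mean Gapdh difference at 1, 6 and 24 h was 2.96, 2.95 and 2.84 in ethanol arrays of the CeA and 2.85, 2.93 and 2.94 in water arrays. In the NAc shell it was 1.73, 1.81 and 1.83 in ethanol arrays and 1.62, 2.00 and 2.01 in water arrays. At 6 and 24 h the NAc shell water arrays thus had the larger difference, while their complex I genes were lower on average. Among the 9 genes that correlated below 0 were Ndufs3 (-0.38), Ndufv1 and Ndufb8. Whether RNA integrity shaped the ethanol minus water differences was not tested. With the Gapdh difference as a covariate the NAc shell median over the hours was 0.12, and 23 of 36 genes had an unadjusted p under 0.05 (smallest limma adjusted p = 0.0921, 0 passed). By hour in the NAc shell, 0 of 36 had such a p at 1 h (median 0.01, 22 above 0), 19 at 6 h (median 0.19) and 13 at 24 h (median 0.16). In the CeA such a p was reached by 9 of 34 genes over the hours, and by 3, 17 and 0 at 1, 6 and 24 h. For the CeA minus NAc shell difference it was reached by 21 of 34 genes over the hours, and by 1, 26 and 0 at these hours. The share of all probe sets at such a p in this fit is not given, so these counts have no background beside them.

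Other probe sets bear on the reading of 1 gene. The further probe set of Ndufa7 read 0.22 ± 0.14 in CeA arrays and -0.15 ± 0.09 in NAc shell arrays over the hours, against -0.09 and 0.07 for the one used, so the 2 probe sets differed in sign in both regions. At 6 h the further one read 0.35 ± 0.26 and -0.19 ± 0.17, against -0.19 and 0.16 for the one used. With all probe sets of a gene averaged, 33 of 34 genes lay below 0 in the CeA at 6 h. The difference between regions then had 33 of 34 below 0 at 6 h and over the hours.

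Between regions, levels of single complex I genes differed in water rats, as a description only since the arrays look to have been normalized by region. Of 34 genes 21 lay above 0 and 13 below in CeA minus NAc shell (median 0.02), near the split of all probe sets (8543 above and 9029 below 0, median -0.02). Ndufv3 was at 9.41 ± 0.16 in CeA arrays and 10.16 ± 0.23 in NAc shell arrays (SD, n = 17 each), a difference of -0.74. Ndufa8, a subunit of the intermembrane face, was at 12.34 ± 0.23 in CeA arrays and 11.83 ± 0.15 in NAc shell arrays, a difference of 0.51. Ndufb8 was at 6.75 in the CeA, below the limit for testing, and at 8.05 in the NAc shell.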

How the data were processed

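RNA of the CeA and NAc shell was hybridised to Affymetrix rat arrays after 2 labelling cycles from 25 ng, per the labels' protocols. The deposited table holds log2 values that the authors made by RMA, per the submitters' processing notes, with no version given. All 96 columns matched a labelled array and 0 columns were left over. Of 31099 probe sets, 57 controls were left out. Symbols came from the platform annotation, updated by Entrez ID for 20758 of the 20826 probe sets with 1 symbol, while 436 had several and 9780 were not listed.

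Each region was fitted with limma 3.58.1 in R 4.3.3, with 6 group means, eBayes with a trend and p values adjusted by Benjamini-Hochberg over 18625 probe sets, those with a mean above the 40th percentile (6.96 in the CeA, 7.09 in the NAc shell). Adjusted p under 0.05 counts as passing. Array counts limit the precision, and values carry SE or SD. Genes were named by a rule: the 4 smallest p over the hours, the 3 smallest in the other tests, the core genes and Ndufab1, genes against the direction of most, and 2 to 4 examples per role or list. The genes, lists (the other complexes, assembly factors, regulators, cell type markers) and tests were chosen with earlier results of these data known. Alternatives were the filter, repeated quantile normalization, array weights, the Gapdh end difference as covariate, all probe sets of a gene averaged, runs and title numbers as blocks, no trend, low-correlation arrays (over 3 scaled median absolute deviations low) left out, and each array left out in turn. The fit within runs, and runs as a block without the low-correlation arrays, were added after seeing the data. The test was checked on simulated data.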

Additional observations from a re-analysis of the deposited data

Results flagged for a closer look

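Among 60 groups of 4 to 10 arrays of the genes described in full, 2 had an array far from the others, and chance gives about 1 in 20 groups. Ndufab1 in CeA water rats at 6 h had its highest array at 12.67, with the nearest of the other 4 at 12.31. This array, number 16, enters the 6 h difference of Ndufab1. Ndufb7 in NAc shell water rats at 1 h had its highest array at 11.95, with the nearest of the other 6 at 11.68, at an hour where its ethanol minus water difference was not among the leading ones.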

How the results depend on the processing

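Under the alternatives tried, 0 complex I genes passed in any comparison, with 1 exception. With the title number as replicate block, 2 of 34 genes passed in the CeA over the mean of the hours. These were Ndufa6 at -0.36 (limma adjusted p = 0.0133) and Ndufa12 at -0.19 (adjusted p = 0.0422). In all, 1379 of 18625 probe sets passed with that block, a larger share than among the complex I genes. The adjusted p of Ndufa12 was 0.519 without the block and its difference lay between -0.36 and -0.12 over all alternatives. The numbers pair no samples by the labels. Over 17 numbers shared by ethanol and water arrays of the CeA the mean correlation of deviations was 0.07 (lowest -0.78), and over 3 in the NAc shell -0.33. With that block the 1 h median in the CeA was 0.06 with 11 of 34 below 0. Array weights gave 74 CeA probe sets past the test over the hours, and 0 complex I genes. Within the fourth run the CeA median was -0.21, against -0.05 over the hours in all runs; it rests on 2 ethanol and 2 water arrays of 6 h, since that run has no water array of 1 or 24 h. No value reversed its sign past the test. Leaving out each array in turn, medians over the hours ran from -0.07 to -0.04 in the CeA and from 0.07 to 0.11 in the NAc shell. At 6 h they ran from -0.21 to -0.14 in the CeA and from 0.11 to 0.17 in the NAc shell. At 1 and 24 h in the CeA they crossed 0 (-0.04 to 0.01 and -0.02 to 0.05), and for the region difference at 24 h they ran from -0.18 to -0.03. Counts at an unadjusted p under 0.05 ranged between 2 and 12 in CeA arrays and between 7 and 19 in NAc shell arrays over the hours, lowest without CeA water array 16 and without NAc shell ethanol array 33. No filter gave 35 of 36 genes below 0 in the CeA at 6 h. The number of arrays, 5 in several water groups, limits all values.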
